A study of Homo sapiens with 8 samples.

Results

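The genes described here are the 7 cyclin-dependent kinase (CDK) inhibitors of the human genome's CIP/KIP and INK4 families: CDKN1A (p21), CDKN1B (p27), CDKN1C (p57), CDKN2A (p16 and ARF), CDKN2B (p15), CDKN2C (p18) and CDKN2D (p19). They were chosen by symbol, and all 7 were found in each of the 3 deposited tables, which share 17467 genes. RNA was sequenced from SUDHL6, an established diffuse large B-cell lymphoma line of germinal-centre B-cell type, after 18 h with the vehicle DMSO or with 1 of 3 compounds, MS8815, EPZ-6438 or MS8815N, each at 2.5 µM. Each of the 4 groups had 2 libraries, 8 in all. Per the labels, MS8815 is a PROTAC against EZH2, that is, a molecule that brings its target to a ubiquitin ligase for degradation. EPZ-6438 (tazemetostat) is named as the matched inhibitor of the enzymatic SET domain of EZH2, and MS8815N as an analog control that is not a PROTAC. All groups share the cell line, its medium and the duration of treatment. Whether the duplicates are separate cultures is not stated in the labels. The p-values therefore reflect the spread of these libraries alone, and that spread may be technical.

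CDK inhibitors bind cyclin-dependent kinases and restrain entry into and passage through the cell cycle. CIP/KIP proteins bind cyclin-CDK complexes of several kinds, whereas INK4 proteins bind CDK4 and CDK6 and so favour the unphosphorylated form of the RB protein, which holds E2F factors in check. EZH2, which methylates histone H3 at lysine 27 as part of the polycomb complex PRC2, is known as a repressor of the CDKN2A and CDKN2B locus in many cell types and of CDKN1A in germinal-centre B cells. The comparison of the compounds therefore asks whether loss or inhibition of EZH2 goes with other transcript levels of these inhibitors.

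With MS8815, 6 of the 7 inhibitors passed the test against DMSO, 4 higher and 2 lower (limma, adjusted p under 0.05 over all genes of the table). CDKN1A and CDKN1C were about 13.3-fold and 13.6-fold higher, and CDKN2B and CDKN2D 2.36-fold and 2.05-fold higher. CDKN2A and CDKN2C were lower, at 0.528 and 0.759 of DMSO, in the deposited normalisation. When B-cell genes set the scale (the pan-B and germinal-centre marker genes held level between libraries), neither was below DMSO. CDKN2A then had a log2 fold change of 0.15 and was not called, and CDKN2C had 0.67 and was called higher. Both lay below the median of all genes in that scaling, 1.04. CDKN1B did not pass. Of all 18744 genes measured with MS8815, 46.9% were called, 24.5% higher and 22.4% lower. With EPZ-6438 and with MS8815N, 0 of the 7 were called, against 0.0328% of 18320 genes and 0.533% of 18398 genes.

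The stretches of promoter below belong to called members with a RefSeq (GRCh38.p14) start. At least 150 of the 250 bases before that start had to come ahead of any annotated untranslated (UTR) or coding base among them. The stretches are shown so that 3 of the 4 genes that rose can be read beside the 2 that were lower in the deposited normalisation. Each begins 250 bases before a RefSeq transcript start and runs 5′ to 3′ on the gene's own strand. It stops at the first UTR or coding base that GENCODE 29 places inside those 250 bases, or at their end. The CDKN1A stretch lies inside the gene as GENCODE 29 places it (from 36676460). Capitals mark GC boxes (GGGCGG on either strand, overlapping matches counted), the sequence bound by SP and KLF factors.
CDKN1A (chr6:36678464-36678657, plus strand): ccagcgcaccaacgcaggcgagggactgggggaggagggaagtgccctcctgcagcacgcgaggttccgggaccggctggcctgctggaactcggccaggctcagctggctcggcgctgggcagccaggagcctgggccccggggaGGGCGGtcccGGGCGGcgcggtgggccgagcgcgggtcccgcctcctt
CDKN2B (chr9:22009364-22009555, minus strand): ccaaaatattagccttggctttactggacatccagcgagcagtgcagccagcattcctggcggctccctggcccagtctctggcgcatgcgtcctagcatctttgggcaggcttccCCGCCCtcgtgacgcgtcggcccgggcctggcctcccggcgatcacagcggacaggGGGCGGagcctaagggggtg
CDKN2D (chr19:10569060-10569229, minus strand): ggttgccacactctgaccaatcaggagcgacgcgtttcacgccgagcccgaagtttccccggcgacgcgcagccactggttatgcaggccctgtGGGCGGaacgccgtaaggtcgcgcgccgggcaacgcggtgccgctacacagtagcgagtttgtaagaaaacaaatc
CDKN2A (chr9:21995325-21995574, minus strand): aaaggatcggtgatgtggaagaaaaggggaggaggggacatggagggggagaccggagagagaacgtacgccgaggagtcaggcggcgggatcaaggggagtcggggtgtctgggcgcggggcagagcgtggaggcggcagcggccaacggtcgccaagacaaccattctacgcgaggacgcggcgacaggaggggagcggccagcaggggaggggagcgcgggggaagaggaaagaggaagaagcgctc
CDKN2C (chr1:50960495-50960744, plus strand): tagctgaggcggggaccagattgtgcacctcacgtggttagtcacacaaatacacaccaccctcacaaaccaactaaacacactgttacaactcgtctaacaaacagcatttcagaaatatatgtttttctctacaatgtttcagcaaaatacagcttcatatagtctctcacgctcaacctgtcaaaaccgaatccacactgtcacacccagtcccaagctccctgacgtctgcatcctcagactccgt
In the full windows of 250 bases, CDKN1A held 4 GC boxes, CDKN2B 2 and CDKN2D 2, of which the stretches show 2, 2 and 1. The window of the upstream CDKN2A start, from which the ARF transcript begins, held 0, and that of the downstream p16 start held 1. CDKN2C has 3 RefSeq starts, whose windows held 0, 5 and 1. CDKN1B, whose call failed against DMSO, held 1. Of all 35116 windows of this length, 42.6% held at least 1 GC box, 24.3% at least 2 and 7.63% at least 4. The windows of CDKN1A, CDKN2B and CDKN2D thus held at least 2, and those of CDKN2A and CDKN2C held 0 to 5. CDKN1C, the other gene that rose, has no window here. The matches describe letters only. Other motifs searched on both strands were CCAAT (in 32% of all windows), CACGTG (6.34%), TATAAA (10.7%) and TGACGT (7.1%). CCAAT was in the windows of CDKN1B, CDKN2D and 1 of the 3 CDKN2C starts, CACGTG and TGACGT were each in 2 of the 3 CDKN2C windows, and TATAAA was in no member's window.

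**Figure D1:**
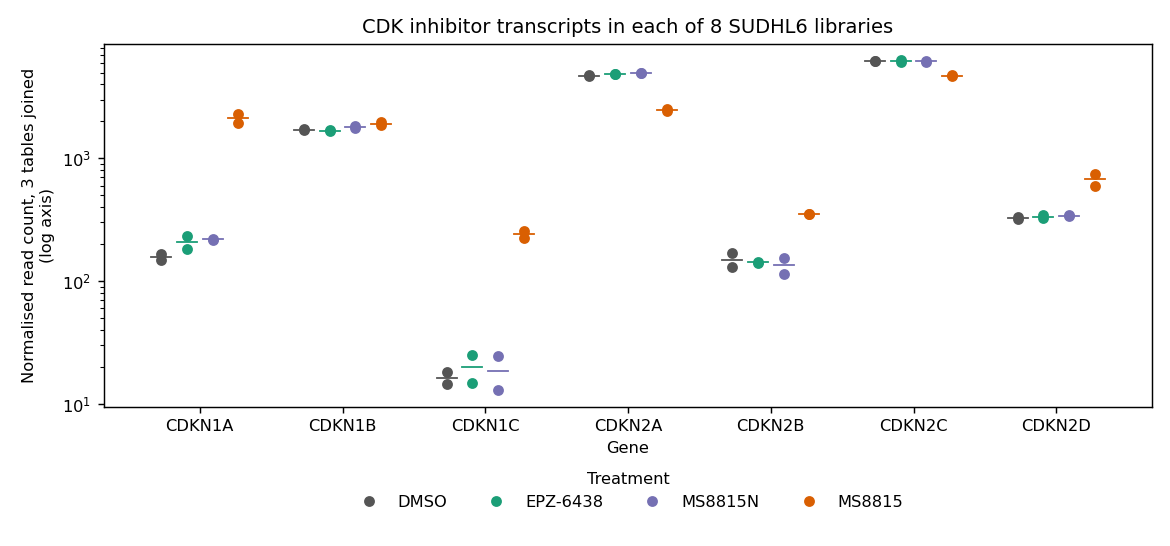
Normalised read count (log axis) of each CDK inhibitor in the 8 libraries, with the 3 tables joined on that of MS8815N. Points are libraries and bars group means. The MS8815 points of CDKN1A and CDKN1C stand more than 10-fold above DMSO, and those of CDKN2A below it in the deposited normalisation but not after scaling to B-cell genes.

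The members' values below are normalised read counts with the 3 tables joined gene by gene through their shared DMSO libraries, and sums and means over other genes are in the scale of the MS8815 table. Estimated depth was 13.0 and 14.6 M reads for the MS8815 libraries and 26.0 to 34.1 M for the others, so the MS8815 values rest on fewer reads. The B-cell identity of the line was visible in DMSO, where all 18 pan-B markers were detected. Against DMSO, 17 of these 18 were lower with MS8815 (median log2 fold change -1.02), and their summed count fell from 131158 and 132843 to 64032 and 63993. In the same libraries 11 of 12 epithelial markers were higher (median 4.03), with a summed count of 838 and 828 in DMSO and 13929 and 13847 with MS8815. Of 13 measured markers of fibroblasts and other adherent cells 12 were higher (median 3.90), summing to 1687 and 1444 in DMSO and 22850 and 23899 with MS8815. No epithelial or adherent-cell marker in the table was at 0 in a library, so those in it were low but present with DMSO. This covers tabled genes only. CDH1 and COL1A2 are not in the tables of EPZ-6438 and MS8815N, which hold the same DMSO libraries, and COL3A1 is in none. T and NK cell markers had 0 of 4 measured members called and endothelial markers 0 of 2, with CDH5, VWF, KDR and TEK not in the table. Of 4 measured myeloid markers 2 were higher, both from low counts, CSF1R (2.79 to 43.6) and CD14 (2.07 to 17.4). CD33 was not called, nor was LYZ, the most abundant of them (144 to 134, log2 fold change -0.09). S100A8, S100A9, FCGR3A and MPO are not in the table. Of 6 plasma-cell markers 3 were higher and 2 lower. Beside these marker counts, 24.5% of all genes were called higher with MS8815 and 22.4% lower. The pan-B, epithelial and adherent-cell lists changed in the same MS8815 libraries as the inhibitor values, and their part in those values was not tested. In bulk RNA, fewer cells of a type and less RNA per cell cannot be told apart.

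CDKN1A encodes p21, the CIP/KIP inhibitor induced by p53 and by other signals that halt the cell cycle (GRCh38, GENCODE 29, chromosome 6, 36676460 to 36687339, plus strand). Its count was 165 and 149 in the DMSO libraries, 231 and 181 with EPZ-6438, 216 and 221 with MS8815N, and 2300 and 1924 with MS8815. Every treated library lay above both DMSO libraries, and the MS8815 libraries lay far above all others. Libraries also failed to overlap with DMSO for 48.1% of all genes with EPZ-6438 and 46.7% with MS8815N. The log2 fold change of MS8815 against DMSO was 3.73 ± 0.14 (SE, n = 2 each, limma, adjusted p = 4.81e-05). For MS8815N it was 0.48 ± 0.14 (limma, adjusted p = 0.178, with an unadjusted p = 0.0123), and for EPZ-6438 it was 0.38 ± 0.17 (limma, adjusted p = 0.345), and neither was called. The same 2 DMSO libraries stand in all 3 comparisons. In the order MS8815, MS8815N and EPZ-6438, the epithelial markers had medians of 4.03, 0.44 and 0.41 and the adherent-cell markers 3.90, 0.56 and 0.41. Both lists thus had a positive median where CDKN1A was above DMSO, and their part in it was not tested. Of all markers listed, 2 were called with MS8815N. THBS1, an extracellular glycoprotein of adherent cells, rose by 0.85 (limma, adjusted p = 0.0329), and XBP1, a factor of plasma cells, by 0.46 (limma, adjusted p = 0.0407).

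CDKN1B encodes p27, which is controlled largely at the level of protein stability (chromosome 12, 12715058 to 12722371, plus strand). Its count was 1696 and 1734 with DMSO, 1664 and 1698 with EPZ-6438, 1772 and 1840 with MS8815N, and 1859 and 1970 with MS8815. The groups lay within a narrow band, with MS8815 at its top. The log2 fold change with MS8815 was 0.16 ± 0.07, with a 95% confidence interval from -0.02 to 0.34 (limma, adjusted p = 0.124). It passed the threshold in the joined fit of 8 libraries (adjusted p = 0.0482), with quantile-normalised values (0.29, adjusted p = 0.025) and with B-cell genes as the scale (1.23, adjusted p = 0.000173).

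CDKN1C encodes p57, an imprinted inhibitor best known from development (chromosome 11, 2883213 to 2885773, minus strand). It was the least abundant member, at 18.0 and 14.5 with DMSO, 14.8 and 24.7 with EPZ-6438, 12.9 and 24.3 with MS8815N, and 225 and 257 with MS8815. The first 3 groups overlapped one another and the MS8815 libraries stood apart. In estimated reads, these values rest on about 17 and 14 in the DMSO libraries and 85 and 113 in the MS8815 libraries. The log2 fold change with MS8815 was 3.77 ± 0.31 (limma, adjusted p = 0.000286), and 2.62 after quantile normalisation. For EPZ-6438 it was 0.23, with an interval from -0.80 to 1.26, and for MS8815N 0.13, from -0.95 to 1.20, so differences of nearly 1 log2 unit in either direction lay within these intervals.

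CDKN2A encodes both p16 and, from its upstream start in another reading frame, ARF, an activator of p53 (chromosome 9, 21967753 to 21995301, minus strand). It was among the abundant members, at 4673 and 4755 with DMSO, 4891 and 4888 with EPZ-6438, 4930 and 4989 with MS8815N, and 2541 and 2439 with MS8815. All 4 libraries of EPZ-6438 and MS8815N lay slightly above DMSO and both MS8815 libraries well below it. Non-overlap with DMSO was seen for 48.1% of all genes with EPZ-6438 and 46.7% with MS8815N. In the deposited normalisation the log2 fold change with MS8815 was -0.92 ± 0.06 (limma, adjusted p = 9.58e-05). Quantile normalisation, which gives all libraries the same distribution of values, gave -0.71, whereas scaling to B-cell genes gave 0.15 (adjusted p = 0.119). The log2 difference was 0.05 for EPZ-6438 (limma, adjusted p = 0.498) and 0.07 for MS8815N (limma, adjusted p = 0.372). The gene-level table does not part p16 from ARF transcripts. CDKN2A shares 341 exon bases, 7.88% of its own, with the antisense gene CDKN2B-AS1, and whether the counting used strand is not given in the sources used here.

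CDKN2B encodes p15, the INK4 inhibitor induced by TGF-beta signalling (chromosome 9, 22002903 to 22009363, minus strand), 7.6 kb from CDKN2A. Its count was 169 and 130 with DMSO, 141 and 144 with EPZ-6438, 115 and 153 with MS8815N, and 351 and 352 with MS8815. MS8815 was above all other libraries, and the other groups overlapped. The log2 fold change with MS8815 was 1.24 ± 0.21 (limma, adjusted p = 0.00371). It missed the threshold with quantile-normalised values (0.34, adjusted p = 0.192). It also missed it when either DMSO library was left out, at 1.42 without DMSO replicate 1 (adjusted p = 0.0531) and at 1.05 without the second (adjusted p = 0.0826). The adjacent genes CDKN2A and CDKN2B thus had opposite calls in the deposited normalisation. In the MS8815 table their ratio within a library (CDKN2B to CDKN2A), which a factor applied to a whole library leaves as it is, was 0.0323 and 0.0243 with DMSO and 0.123 and 0.128 with MS8815. Quantile normalisation, which is no such factor, narrowed the gap between their log2 fold changes, to 0.34 and -0.71. Transcripts of the genes share an identical run of 80 bases, so reads from it could be assigned to either. The antisense gene CDKN2B-AS1 (ANRIL) was also higher with MS8815 in the deposited normalisation, by 0.71 ± 0.19 (limma, adjusted p = 0.0232), but stood at -0.25 with quantile-normalised values (adjusted p = 0.285).

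CDKN2C encodes p18, known for its role in plasma-cell differentiation (chromosome 1, 50960745 to 50974633, plus strand). Its count was 6252 and 6203 with DMSO, 6101 and 6278 with EPZ-6438, 6141 and 6193 with MS8815N, and 4686 and 4765 with MS8815. MS8815 lay below the other 6 libraries, which spanned a narrow range. In the deposited normalisation the log2 fold change with MS8815 was -0.40 ± 0.04 (limma, adjusted p = 0.000836). It was -0.11 and not called with quantile-normalised values (adjusted p = 0.0891). With B-cell genes as the scale it was 0.67 (adjusted p = 0.000371).

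CDKN2D encodes p19 (chromosome 19, 10566462 to 10569059, minus strand). Its count was 320 and 334 with DMSO, 328 and 342 with EPZ-6438, 342 and 340 with MS8815N, and 597 and 752 with MS8815. Only the MS8815 libraries, which also differed most from each other, stood apart among the 8. The log2 fold change with MS8815 was 1.03 ± 0.15 (limma, adjusted p = 0.00405), and 0.65 after quantile normalisation (adjusted p = 0.0319). Leaving out DMSO replicate 1 (1.00, adjusted p = 0.088) or its duplicate (1.07, adjusted p = 0.0798) lost the call.

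**Figure D2:**
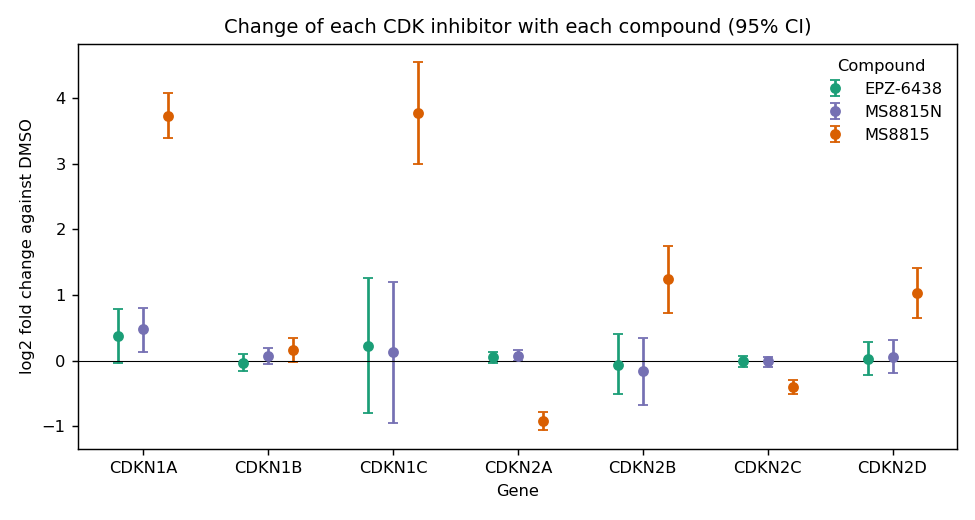
Log2 fold change against DMSO of each CDK inhibitor with each compound. Points are limma estimates from log2(normalised count + 1) and bars 95% confidence intervals. MS8815 estimates run from -0.92 for CDKN2A to 3.77 for CDKN1C, and scaling to B-cell genes turns CDKN2A and CDKN2C above 0. The EPZ-6438 and MS8815N estimates lie between -0.16 and 0.48.

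For EPZ-6438 the 7 members had log2 fold changes from -0.06 (CDKN2B) to 0.38 (CDKN1A), and 0 of 7 were called by limma, against a background of 0.0328% of 18320 genes (6 genes, with 3076 at an unadjusted p under 0.05). The libraries of the 2 groups did not overlap for 2 of 7 members, CDKN1A and CDKN2A, and for 48.1% of all genes. For MS8815N the range was -0.16 (CDKN2B) to 0.48 (CDKN1A), and 0 of 7 were called by limma, against 0.533% of 18398 genes (98 genes, with 2894 at an unadjusted p under 0.05). Non-overlap was seen for 5 of 7 members, 4 higher and 1 lower, and for 46.7% of all genes. The intervals bound what these libraries could show. For CDKN1B, CDKN2A and CDKN2C, the abundant members, every bound for both compounds lay between -0.16 and 0.20. For CDKN1C they reached from -0.95 to 1.26.

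The 3 compounds had the same dose and time, so they were compared pairwise with each other in 1 fit of all 8 libraries. The 3 pairs were tested, and p-values for a member are also given adjusted over them. Between MS8815 and its analog MS8815N, 6 of 7 members were called, 4 higher and 2 lower with MS8815, against 50.6% of 17467 genes called (24.2% higher and 26.3% lower). CDKN1A was 3.26 higher on the log2 scale (interval 2.90 to 3.62, limma, adjusted p = 1.31e-06, adjusted over the pairs 4.26e-08) and CDKN1C 3.69 higher (2.73 to 4.64). CDKN2B differed by 1.40 (0.94 to 1.87) and CDKN2D by 0.97 (0.67 to 1.27). CDKN2A was lower by -0.99 (-1.09 to -0.90) and CDKN2C by -0.38 (-0.46 to -0.31) in the deposited normalisation, and with B-cell genes as the scale these were 0.01 and 0.62. CDKN1B was not called, at 0.08 (-0.05 to 0.22, limma, adjusted p = 0.269). It was called with quantile-normalised values (0.17, adjusted p = 0.0374) and with B-cell genes as the scale (1.09, adjusted p = 8.01e-07).

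Between MS8815 and EPZ-6438, 7 of 7 members were called, 5 higher and 2 lower with MS8815, against 50.6% of genes called (24.2% higher and 26.3% lower). The differences were 3.36 for CDKN1A, 3.58 for CDKN1C, 1.30 for CDKN2B and 1.00 for CDKN2D. Those of CDKN2A and CDKN2C were -0.97 and -0.39 in the deposited normalisation and 0.09 and 0.67 on scaling to B-cell genes. CDKN1B was 0.19 higher (0.05 to 0.32, limma, adjusted p = 0.0261, adjusted over the pairs 0.0357). That call was lost without EPZ-6438 replicate 1 (adjusted p = 0.119), without EPZ-6438 replicate 2 (0.0768) and without MS8815 replicate 2 (0.0801).

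Between MS8815N and EPZ-6438, 0 of 7 members were called by limma, against 0.172% of genes (30 genes, with 1070 at an unadjusted p under 0.05). The interval of the difference was -0.26 to 0.46 for CDKN1A, -0.03 to 0.24 for CDKN1B, -0.07 to 0.11 for CDKN2A and -0.08 to 0.07 for CDKN2C. It was wider for the scarcer members, at -0.57 to 0.36 for CDKN2B, -0.27 to 0.33 for CDKN2D and -1.06 to 0.85 for CDKN1C. The lowest p adjusted over the pairs was 0.166, for CDKN1B. Within these bounds no difference between the analog and the inhibitor was detected, which does not show that they act alike.

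Counts of different genes depend on transcript length, so the joined counts were divided by merged exon length in kb (GENCODE 29). That length joins the exons of all transcripts of a gene (14 for CDKN2A, 4.33 kb) and is not the length of a single transcript. The order and shares below depend on it. In the DMSO libraries CDKN2C led at 1884 and 1870 counts per kb, followed by CDKN2A at 1079 and 1098 and CDKN1B at 603 and 617. CDKN2D followed at 213 and 222, then CDKN1A at 54.1 and 48.9, CDKN2B at 41.8 and 31.9, and CDKN1C at 7.28 and 5.86. No neighbours in this order overlapped between the DMSO libraries. With MS8815 CDKN2C stayed first, at 1412 and 1436. CDKN1A (754 and 631) and CDKN1B (661 and 701) overlapped, and per kb both lay above CDKN2A (587 and 563). Before division by length, CDKN2A (2541 and 2439) lay above both CDKN1A (2300 and 1924) and CDKN1B (1859 and 1970) with MS8815. The CIP/KIP genes made up 17.1% and 17.3% of the summed counts per kb of the 7 genes with DMSO, 17.3% and 17.0% with EPZ-6438, 17.9% and 18.3% with MS8815N, and 37.8% and 35.7% with MS8815. This share does not depend on a factor applied to a whole library, but it does on the scale of each gene, which differs between the tables. For the same DMSO libraries, the members' counts were 1.51 to 1.71 times as high in the MS8815N table as in the MS8815 table. In the scale of the MS8815 table itself, the CIP/KIP share was 17.1% and 17.2% with DMSO and 37.5% and 35.5% with MS8815. An exact two-sided permutation test of MS8815 against DMSO gave p = 0.333, the smallest that 2 libraries against 2 allow. The sum itself was 3883 and 3894 with DMSO and 3990 and 4022 with MS8815, so in the deposited normalisation the make-up differed more than the total.

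**Figure D3:**
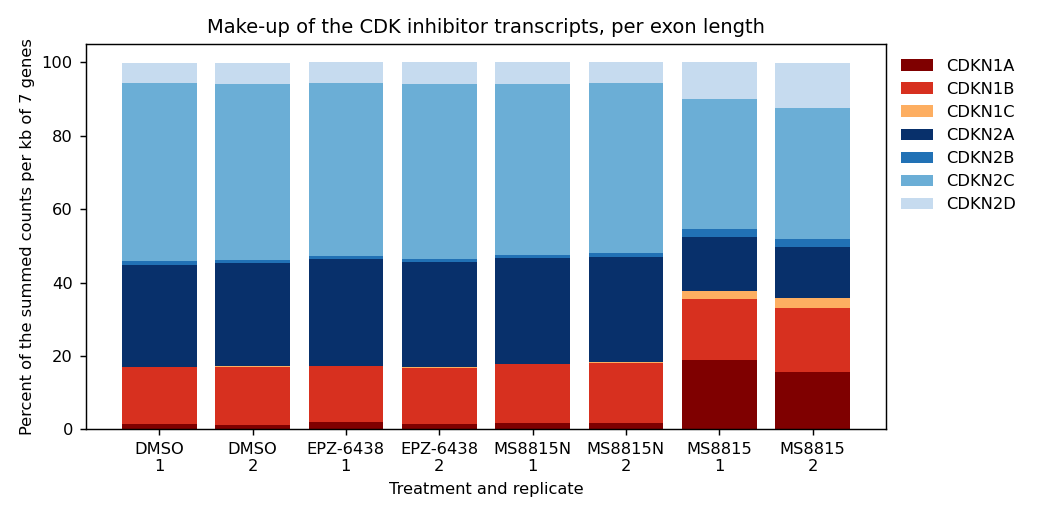
Percent of the summed counts per kb of merged exons that each of the 7 CDK inhibitors takes in each library. Reds and orange are CIP/KIP genes and blues INK4 genes. The CIP/KIP part is 17.0% to 18.3% in the 6 libraries without MS8815 and 35.7% and 37.8% in the MS8815 libraries.

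Ratios within a library do not change with a factor applied to the whole library, though quantile normalisation and the scale of each gene in a table can change them. The ratios here are in the scale of the MS8815 table. CDKN1A stood at 0.0957 and 0.0846 of CDKN1B with DMSO and at 1.22 and 0.96 with MS8815. CDKN2D stood at 0.0529 and 0.0556 of CDKN2C with DMSO and at 0.132 and 0.163 with MS8815. The log2 ratio of CDKN2A to CDKN2C was -0.36 and -0.32 with DMSO and -0.82 and -0.90 with MS8815, so the members that were lower in the deposited normalisation did not change equally. The log2 ratio of CDKN2A to EZH2 was 0.12 and 0.07 with DMSO and -0.56 and -0.54 with MS8815. The EZH2 transcript was at 2820 and 2993 with DMSO and 2479 and 2345 with MS8815 in the MS8815 table, a log2 fold change of -0.27 ± 0.06 (limma, adjusted p = 0.0123) in the deposited normalisation, against 0.80 with B-cell genes as the scale (adjusted p = 0.000737). For a degrader, which acts on the protein, the transcript does not check the loss of EZH2.

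**Figure D4:**
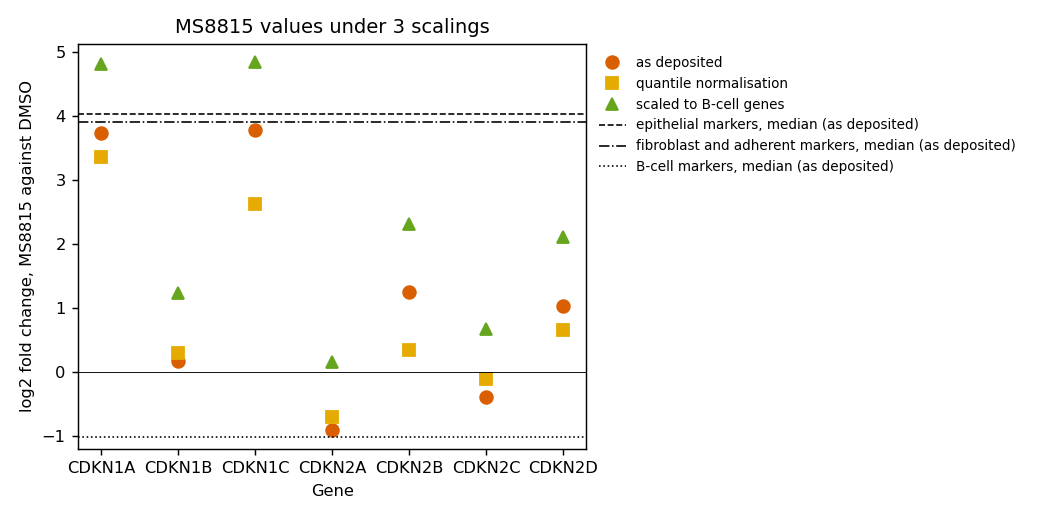
Log2 fold change of MS8815 against DMSO for each CDK inhibitor in 3 normalisations: as deposited, quantile, and with B-cell genes as the scale. Lines give the medians of 3 marker lists as deposited. CDKN1A and CDKN1C lie above 2.6 in all 3, and CDKN2A and CDKN2C change sign with the scaling to B-cell genes.

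The size of the MS8815 values and, for CDKN2A and CDKN2C, their direction depended on the scaling. Over all genes the median log2 fold change was 0 as deposited. It was -0.20 with quantile-normalised values and 1.04 with B-cell genes as the scale, and the share of calls that were higher was 52.3% as deposited and 99.1% with B-cell genes. Against that last median, CDKN1B at 1.23 lay close to the middle of all genes, and CDKN2A (0.15) and CDKN2C (0.67) below it. CDKN1A (4.80), CDKN1C (4.83), CDKN2B (2.30) and CDKN2D (2.10) lay above it.

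The partners of the inhibitors were described by lists, beside a median of 0 over all genes with MS8815. Of all 18744 genes, 46.9% were called with MS8815, 24.5% higher and 22.4% lower. The counts are those of the deposited normalisation, and with B-cell genes as the scale, where the median of all genes is 1.04, no gene of the 6 lists was called lower. Of 12 CDKs and cyclins, 3 rose and 7 fell with MS8815 (median -0.41, and 0.66 with B-cell genes as the scale). CCND1, the D-type cyclin that pairs with CDK4 and CDK6, rose by 4.17 ± 0.23 on the log2 scale (203 to 3571, limma, adjusted p = 3.12e-05). That rise lay near the MS8815 medians of the epithelial (4.03) and adherent-cell markers (3.90), whose part in it was not tested. The mitotic kinase CDK1 was at -0.95, cyclin A2 (CCNA2) at -0.91 and CDK4 at -0.65. In the RB and E2F list 1 of 13 rose and 7 fell (median -0.47, and 0.60), among them E2F5 (-1.22), the E2F partner TFDP1 (-0.63), RB1 (-0.52) and E2F2 (-0.52). Of 13 measured genes that act in the breakdown of the inhibitors, 0 rose and 8 fell (median -0.31, and 0.76). They include PCNA, the replication clamp on which p21 is marked for degradation (-0.77), the cullin exchange factor CAND1 (-0.72), the adaptor DDB1 (-0.54) and the scaffold CUL4B (-0.36). Of the named genes that fell in these 3 lists, only E2F5 fell by more than the pan-B median of -1.02, and after scaling to B-cell genes only E2F5 (-0.16, adjusted p = 0.265) was still below 0. With EPZ-6438 and MS8815N no gene of these lists was called other than CAND1, which fell by 0.32 (limma, adjusted p = 0.026) and by 0.29 (limma, adjusted p = 0.0144). Of all genes 0.0328% and 0.533% were called with these compounds.

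Of 22 targets of p53 other than CDKN1A, 10 rose and 8 fell with MS8815 (median 0.29, and 1.36 with B-cell genes as the scale). Among all genes 24.5% were called higher with MS8815 and 22.4% lower. The kinase PLK2 rose by 4.03 (79.6 to 1301), the apoptosis gene BBC3 by 1.89, the death receptor TNFRSF10B by 1.65 and the stress gene GADD45A by 1.08. Of 21 transcription regulators of the inhibitor genes 8 rose and 8 fell (median 0.20, and 1.27). ID1, an inhibitor of basic helix-loop-helix factors, rose by 4.12, STAT3 by 1.36 and the zinc-finger factor KLF6 by 1.27, while the factor ETS1 was lower at -0.78 (0.29 with B-cell genes as the scale). Of 12 polycomb and H3K27 demethylase genes 4 rose and 4 fell (median 0.17, and 1.24). The demethylase KDM6A rose by 4.49 (14.2 to 331), the PRC2 partner JARID2 by 1.31 and the PRC1 subunit BMI1, a repressor of CDKN2A, by 0.90, while the PRC2 core subunit EED was lower at -0.90 (0.16 with B-cell genes as the scale). In these 3 lists 0 genes were called with EPZ-6438 or with MS8815N, beside 0.0328% and 0.533% of all genes. With MS8815, PLK2, ID1 and KDM6A lay at or above the medians of the epithelial (4.03) and adherent-cell markers (3.90). The other named rises lay below both medians. The part of those markers in the rises was not tested.

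**Figure D5:**
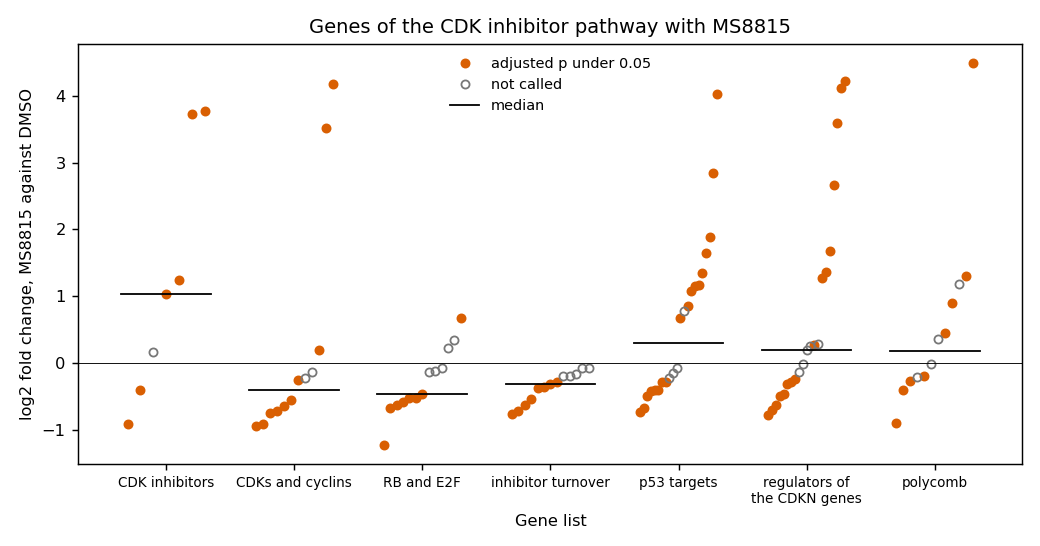
Log2 fold change of MS8815 against DMSO, in the deposited normalisation, for the CDK inhibitors and 6 lists of genes that act with them. Each point is a gene, filled where the adjusted p was under 0.05, and bars are list medians. Medians run from -0.47 for RB and E2F genes to 0.29 for p53 targets, beside 1.03 for the inhibitors, and points below 0 depend on the scaling.

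The nearest measured genes on either side of the inhibitors moved in both directions with MS8815. Lower values are those of the deposited normalisation, and with B-cell genes as the scale SRSF3, CPNE5, FAF1 and KRI1 lay between 0.24 and 0.79. On both sides of CDKN1A, the splicing factor SRSF3 (-0.71, 70.9 kb away) and CPNE5 (-0.83, 53.4 kb away) were lower while CDKN1A rose. Beside CDKN2A, MTAP, the methylthioadenosine phosphorylase often deleted with it, was not called (-0.55, limma, adjusted p = 0.0886). Beside CDKN2C, FAF1 was lower (-0.28) and the ubiquitin ligase RNF11, 261.6 kb away, was higher (1.48). Beside CDKN2D, KRI1 was lower (-0.33) and AP1M2, an adaptor subunit of epithelial cells, rose from 5.23 to 144 (4.68, limma, adjusted p = 0.000436). The neighbours of CDKN1B (GPR19 and APOLD1) and of CDKN1C (KCNQ1OT1 and SLC22A18) were not called.

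For each member, the 2 genes with the most similar pattern over the 8 libraries were found among 12411 genes by the root mean square distance of centred log2 values. For CDKN1A they were TUSC1 (0.0908) and the heme oxygenase HMOX1 (0.0972), which had log2 fold changes of 3.76 and 3.61 with MS8815. For CDKN1C they were the collagen receptor DDR1 (0.151) and the lysyl oxidase LOXL4 (0.177). For CDKN2B they were KLF6 (0.102) and the carnitine palmitoyltransferase CPT1A (0.108), and for CDKN2D RRBP1 (0.0529) and HEXIM1 (0.0579). For CDKN2A they were the potassium channel KCNK12 (0.0278) and the glutamate transporter SLC1A1 (0.0302), for CDKN2C the glycolytic enzyme TPI1 (0.0146) and NANS (0.0173), and for CDKN1B TRAPPC2B (0.0284) and TPT1 (0.0287). The distances describe likeness over 8 libraries in which the 2 MS8815 libraries hold most of the variation.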

How the data were processed

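RNA sequencing of 8 SUDHL6 libraries was used. STAR 2.4.2 and Salmon are named as tools, and GRCh38 as the build, in the submitters' processing notes. Per the labels' protocols, either of 2 library kits was used, without saying which for each library. The authors deposited 3 tables of 4 libraries (18744, 18320 and 18398 genes), whose names call the values DESeq2's variance-stabilised counts. These deposited values are of a log2 type, and each table was transformed on its own. A doubling at the median gene equals only 0.0376 to 0.0918 deposited units, so the transform was inverted in closed form to normalised counts. Depth was estimated from low values, of which 26.6% to 57.3% lay within 0.02 of a whole multiple of 1 read. A spacing fixed beforehand would give 4% by chance. The value of 1 read was chosen as the best spacing of these same values, so the share does not test it.

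Each compound was tested against DMSO within its table by limma 3.58.1 (R 4.3.3) with a variance trend on the deposited values (2 residual degrees of freedom), two-sided, with Benjamini-Hochberg adjustment over all genes and a threshold of 0.05. Log2 fold changes, SE and 95% intervals came from limma on log2(normalised count + 1). For pairs of compounds, the tables were joined through the DMSO libraries and fitted together (4 residual degrees of freedom). Between tables these libraries differed by 1 constant for each gene and 1 for each library, to within 7e-11 on the log2 scale over 17219 genes, and each gene was multiplied by its own constant. The fits were also run on simulated counts with few changed genes and the same spread setting for all genes. That setting differs from the MS8815 libraries, so the run cannot test the fits for them. Alternatives were quantile normalisation, scaling to B-cell genes, removal of the lower 50% of genes, a test on log2 values, a pseudocount of 0.1, no trend, a replicate block, a joined fit and leaving out each library.

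Named genes are all 7 members, EZH2, up to 4 genes a pathway list with the smallest p with MS8815, up to 4 a marker list with the highest level, the nearest measured gene on each side, and the 2 genes closest in pattern (root mean square distance, mean count of at least 50). CDKN2B-AS1 was named after its values were seen. The members and lists were chosen with earlier results of these data known. Promoter sequences are from RefSeq, GRCh38.p14, and matched 6 of the 7 members by symbol. Gene positions are from GENCODE 29, and the gene model behind the tables is not given in the sources used here. Figures and summaries were made with Python 3.11.15, pandas 2.3.3 and numpy 2.4.6.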

Additional observations from a re-analysis of the deposited data

How the results depend on the processing

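Of 427 values of single members under the alternatives, 386 kept their direction and their side of the threshold and 27 turned direction. Of those that kept direction, 9 lost a call and 5 gained one. Values that turned are not counted among lost calls, though CDKN2A, for one, turned to 0.15 against DMSO and was no longer called. The number of members called stayed within 1.5 times the original under the alternatives run, at 4 to 6 of 7 for MS8815 against DMSO when 1 library was left out. Scaling to B-cell genes turned CDKN2A and CDKN2C, to 0.15 and 0.67 against DMSO, 0.01 and 0.62 against MS8815N, and 0.09 and 0.67 against EPZ-6438. It also turned CDKN2C to 0.05 for MS8815N against DMSO and to 0.06 for MS8815N against EPZ-6438. Quantile normalisation turned CDKN1B to 0.02, CDKN2C to 0.05 and CDKN2D to -0.04 for EPZ-6438 against DMSO, and CDKN1C to -0.05 and CDKN2C to 0.04 for MS8815N against DMSO, none of them called. Leaving out 1 library gave, for EPZ-6438 against DMSO, CDKN2B -0.25 to 0.13, CDKN2C -0.03 to 0.01 and CDKN1C -0.12 to 0.58. For MS8815N against DMSO it gave CDKN2B -0.37 to 0.04 and CDKN1C -0.31 to 0.56. For MS8815N against EPZ-6438 it gave CDKN1A -0.08 to 0.28, CDKN1C -0.54 to 0.33, CDKN2B -0.31 to 0.10, CDKN2C -0.03 to 0.02 and CDKN2D -0.0025 to 0.06. The count of all genes called with MS8815 against DMSO was 8782, and 13659 scaled to B-cell genes, 5701 with the lower 50% of genes removed, and 3583 to 8932 without 1 library, with the low counts without DMSO replicate 1 (3657) or DMSO replicate 2 (3583). Against MS8815N it was 13500 and 5635, and against EPZ-6438 13609 and 5613, under the same scaling and filter. The share of higher calls with the filter was 29.1%, against 52.3%. For EPZ-6438 against DMSO the count of 6 became 13 (quantile), 298 (filter), 25 (test on log2), 169 (no trend), 0 (joined fit) and 0 to 0 without 1 library. For MS8815N against DMSO the count of 98 became 385 (filter), 252 (no trend), 65 (joined fit) and 0 to 6 without 1 library. For MS8815N against EPZ-6438 the count of 30 became 17 (quantile) and 8 to 11 without 1 library. The filter removed CDKN1C and CDKN2B from all fits, and CDKN1A from those of EPZ-6438 and MS8815N against DMSO, and these have no value there. Apart from the construction of each alternative, the cause was not tested.

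The labels number the duplicates but do not say that a number marks a shared culture. A replicate block called 10 genes for EPZ-6438 and 353 for MS8815N, against 6 and 98 without it, and 8694 for MS8815 against 8782. Deviations of same-numbered libraries correlated at -0.01, -0.06 and 0.08 in the MS8815, EPZ-6438 and MS8815N tables. The block changed no call of a member.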
